A study of Mus musculus with 6 samples.

Results

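Heart muscle contracts when calcium leaves an internal store, the sarcoplasmic reticulum, and relaxes when the calcium is pumped back. In each beat, calcium entering through the cell surface opens the ryanodine receptor, the release channel of the store, and calcium is then returned by the pump SERCA2a or expelled across the surface membrane by the sodium-calcium exchanger. Small membrane proteins restrain the pump, proteins inside the store bind calcium and report its load to the channel, and junctophilin holds the store against the surface membrane. This report follows 10 genes of this cycle in the embryonic heart. They are the pump gene Atp2a2 and its inhibitors Pln and Sln, the release channel gene Ryr2 and its binding partner Fkbp1b, the store proteins Casq2, Trdn and Hrc, the junctional gene Jph2 and the exchanger gene Slc8a1. Every probe set that the array annotation assigns to exactly 1 gene, and to one of these 10, was used, which gave 28 probe sets of 45037 and 10 genes of 18193.

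Hearts of C57BL/6 mouse embryos were taken at E12.5 and total RNA was hybridised to Affymetrix 3' expression arrays, with 3 arrays labelled wildtype and 3 labelled Rhau KO. Rhau is a synonym of Dhx36, whose product unwinds G-quadruplexes, folds of guanine-rich nucleic acid. The labels do not give the promoter or Cre that made the deletion, the part of the gene that was removed, or the alleles of the control embryos. The series text can be read as giving each array the RNA of 1 heart. The sex-linked signals given below do not go with that reading for 3 arrays, so the number of hearts per array is uncertain. Each p-value rests on how far arrays of the same label differ, whatever number of hearts they hold. Values are log2 MAS5 signals, an intensity scale on which 1 unit is a doubling, and differences are arrays labelled Rhau KO minus arrays labelled wildtype. A probe set is called when limma's two-sided p, adjusted by Benjamini-Hochberg over the 27022 probe sets above a low-signal filter, is under 0.05. Precision is set by having 3 arrays per label.

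The following values bear on how the comparison of the labels can be read, and the labels do not give the sex of the embryos. Dhx36 signal was higher in all 3 arrays labelled Rhau KO on each of its 3 probe sets, by 1.41 (SE 0.109), 1.10 and 0.90, so every direction below is that of the label and not of a checked deletion. Whether these probe sets lie in the deleted part is not given. Signal of Y-linked genes was scaled to put the brightest array at 100. It read 1.2, 2.0 and 39.3 in the arrays labelled wildtype and 59.6, 82.8 and 100 in those labelled Rhau KO. Its mean was 66.6 points higher under Rhau KO, and the groups did not overlap. In a fit of the label alone, a difference by label therefore cannot be told apart from one that goes with this signal. Both Xist and Y-linked signal were present on 3 arrays, which are wildtype replicate 3 and Rhau KO replicates 1 and 2. Nkx2-5, a homeobox factor that controls heart muscle genes, was lower by 1.29 (SE 0.060). Among all probe sets tested, 1824 were higher and 1858 lower, or 1007 and 2528 when each array was centred on its median. With the Y-linked signal added to the fit as a covariate, 28 and 110 passed.

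Of the 10 genes, each taken by its probe set of highest mean signal, Pln rose, Sln, Ryr2, Casq2, Jph2 and Hrc fell, and Atp2a2, Trdn, Slc8a1 and Fkbp1b did not pass. Of all genes tested this way, 6.77% were called higher and 9.75% lower. By probe set, 27 of the 28 lay above the filter, and of these 4 were higher, 5 lower and 18 not called. The remaining one, Sln probe set 1420883_at, had signals between 2.25 and 4.35 and was not tested. Over all probe sets tested 13.6% were called, 6.75% higher and 6.88% lower. The groups did not overlap for 13 of the 27, where they did not overlap for 33.9% of all probe sets tested. The median difference of the 10 genes was -0.23, against 0.011 over all genes tested. The groups did not overlap for 6 of the 10 genes, where they did not overlap for 37.1% of all genes. In RNA of whole hearts, fewer muscle cells and less RNA per muscle cell cannot be told apart.

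**Figure D1:**
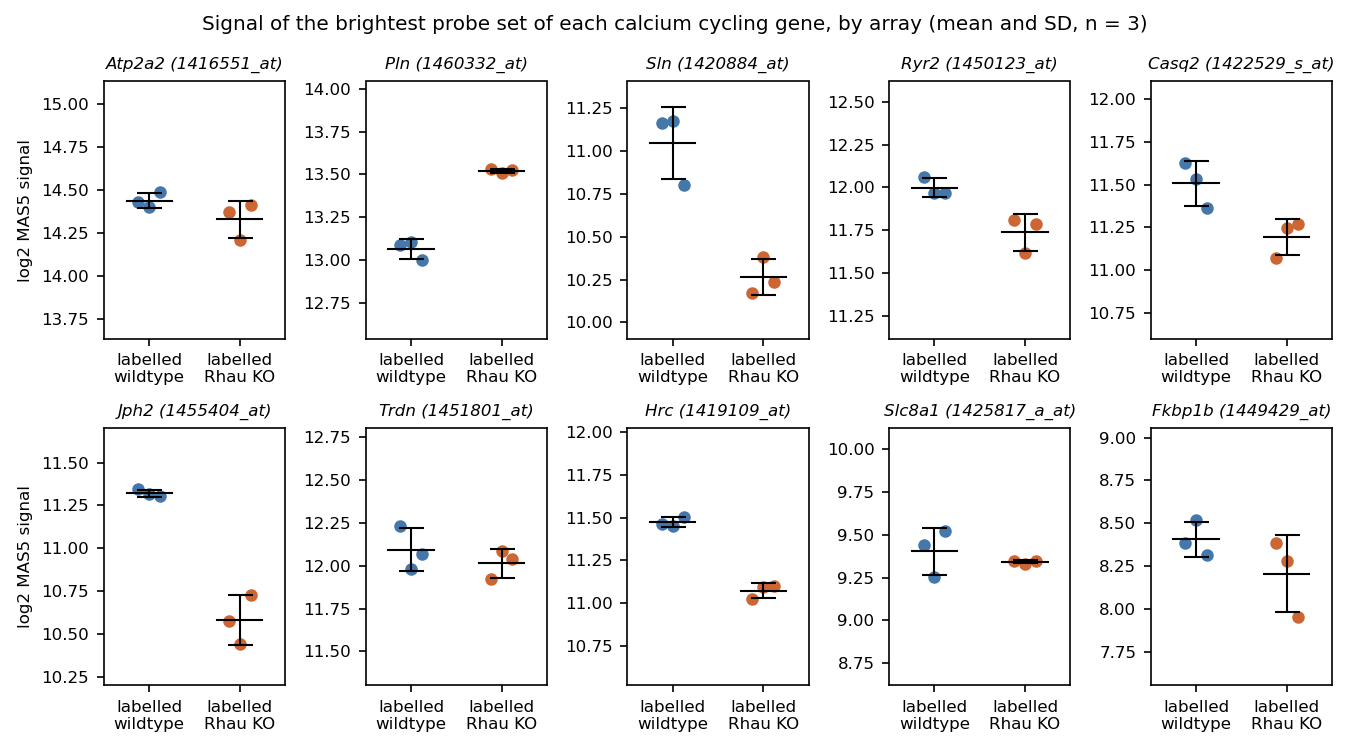
Log2 MAS5 signal of the brightest probe set of each gene, with a point for each array, a bar at the mean and the SD as whiskers (n = 3 per label). Every panel spans the same range on the vertical axis. Pln stands higher and Sln, Ryr2, Casq2, Jph2 and Hrc stand lower in the arrays labelled Rhau KO without overlap. Atp2a2, Trdn, Slc8a1 and Fkbp1b overlap.

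The stretches of DNA before the start are shown for every gene called on its brightest probe set that had one at hand, the gene that rose and 4 that fell. For Jph2, with 2 listed starts, 1 is shown. RefSeq sequence of build GRCm38.p6 was at hand for 7 of the 10 genes: Pln, Ryr2, Casq2, Jph2, Hrc, Slc8a1 and Fkbp1b. Each line below gives the 250 bases before the start, 5′ to 3′ along the gene. Capitals mark motifs found on either strand, apart from the guanine pattern named last. The motif AGATAA is bound by factors of the GATA family. TATAAA is the core of the TATA box, where transcription machinery can assemble. CAGCTG is an E-box, and the MEF2 site is bound by muscle factors of that name.
Pln, chr10:53337436-53337685, plus strand: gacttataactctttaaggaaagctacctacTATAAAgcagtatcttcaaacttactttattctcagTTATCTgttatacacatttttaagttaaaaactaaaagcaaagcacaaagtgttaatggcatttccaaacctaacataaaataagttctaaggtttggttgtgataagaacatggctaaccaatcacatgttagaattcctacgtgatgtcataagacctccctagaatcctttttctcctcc
Jph2, chr2:163397994-163398243, minus strand: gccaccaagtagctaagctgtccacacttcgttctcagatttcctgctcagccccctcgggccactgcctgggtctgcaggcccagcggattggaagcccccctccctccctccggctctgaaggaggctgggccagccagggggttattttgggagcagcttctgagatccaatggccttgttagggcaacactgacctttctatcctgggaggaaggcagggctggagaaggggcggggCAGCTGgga
Hrc, chr7:45335019-45335268, plus strand: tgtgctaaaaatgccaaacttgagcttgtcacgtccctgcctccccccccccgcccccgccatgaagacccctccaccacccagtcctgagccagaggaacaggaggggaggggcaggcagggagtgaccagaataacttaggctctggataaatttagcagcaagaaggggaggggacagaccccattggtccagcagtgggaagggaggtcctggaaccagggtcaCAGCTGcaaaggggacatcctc
Casq2, chr3:102086165-102086414, plus strand: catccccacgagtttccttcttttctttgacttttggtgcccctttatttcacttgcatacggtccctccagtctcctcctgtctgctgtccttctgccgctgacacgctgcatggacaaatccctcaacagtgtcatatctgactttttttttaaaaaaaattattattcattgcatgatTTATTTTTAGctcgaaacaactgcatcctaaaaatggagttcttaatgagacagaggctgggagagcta
Ryr2, chr13:12106946-12107195, minus strand: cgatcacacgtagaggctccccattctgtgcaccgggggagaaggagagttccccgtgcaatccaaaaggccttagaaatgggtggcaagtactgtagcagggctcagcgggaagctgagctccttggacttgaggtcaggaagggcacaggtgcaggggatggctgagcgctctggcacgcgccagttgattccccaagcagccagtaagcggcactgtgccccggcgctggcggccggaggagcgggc

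The Pln stretch was poor in G and C at 32.8%, against 62.0% for Jph2, 59.6% for Hrc, 63.2% for Ryr2, 41.6% for Casq2 and a median of 52.4% over all 32851 stretches of this length. The Pln stretch held TATAAA, found in 12.4% of all stretches, and AGATAA on the opposite strand, found in 9.99%. AGATAA also lay before Slc8a1, which was not called on its brightest probe set. The Ryr2 stretch held none of the motifs searched. CAGCTG, which reads the same on both strands, lay before Jph2 and Hrc and in 13.0% of all stretches. A MEF2 site lay before Casq2 and in 2.92% of all stretches. The NKX2-5 motif TNAAGTG, the M-CAT motif CATTCC and the SRF CArG box had no match before any of the 7 genes, against 10.1%, 12.6% and 1.47% of all stretches. Some G-quadruplexes form from 4 runs of GGG, 1 to 7 bases apart. That pattern lay on the opposite strand before Hrc and Fkbp1b and in 16.7% of all stretches. These are matches of letters in a short window.

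Among the genes of calcium uptake, Pln rose, Sln fell and Atp2a2 did not pass. Pln encodes phospholamban, which inhibits SERCA2a until it is phosphorylated, and all 3 of its probe sets were higher in the arrays labelled Rhau KO. On probe set 1460332_at the arrays labelled wildtype read 13.09, 13.10 and 13.00 and those labelled Rhau KO 13.53, 13.51 and 13.52. Every array of one label lay above every array of the other, and the arrays labelled Rhau KO had an SD of 0.012. The difference was 0.46 (SE 0.047, adjusted p = 2.10e-04 by limma), a 1.37-fold higher signal. Probe set 1423359_at rose by 0.67 (SE 0.071, adjusted p = 2.56e-04), from a mean of 12.52 (SD 0.024) to 13.27, 13.01 and 13.30. Probe set 1450952_at rose by 0.39 (SE 0.059, adjusted p = 0.0022), again without overlap. The annotation gives the same source sequence for these 3 probe sets, so they are not independent evidence.

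Sln encodes sarcolipin, the inhibitor of the same pump that in the mature heart is found mainly in the atria, and it moved in the opposite direction. Its signal on probe set 1420884_at was 11.16, 11.18 and 10.80 in replicates 1 to 3 labelled wildtype and 10.17, 10.38 and 10.24 in replicates 1 to 3 labelled Rhau KO. Replicate 3 labelled wildtype was the lowest of its label and still lay above every array of the other. The difference of -0.78 (SE 0.10, adjusted p = 8.06e-04 by limma) was a 1.72-fold lower signal, the largest among the 10 genes. In the fit with the Y-linked covariate it was -0.50 (SE 0.21) without a call, and when the dim second probe set was averaged in it was -0.24 without a call.

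Atp2a2 itself, the gene of the pump SERCA2a, did not pass on any of its 6 probe sets. The brightest read 14.43, 14.40 and 14.49 in the arrays labelled wildtype and 14.37, 14.21 and 14.41 in those labelled Rhau KO, and the groups overlapped. Its difference of -0.11 had a 95% interval from -0.24 to 0.018. The other probe sets had 2 negative and 3 positive differences, from -0.13 to 0.33, and the one at -0.13 (1452363_a_at) passed only when each array was centred on its median, at -0.20. The brightest probe set lay close to the highest signals on these arrays, 15.07 to 15.21, where saturation was not tested.

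The signal of the pump was therefore set against that of each inhibitor within each array. Such a ratio of probe sets is not a ratio of molecules, and only its change between labels can be read. That change is the difference of Atp2a2 minus that of the inhibitor, so it is no separate evidence. The log2 ratio of Atp2a2 to Pln was 1.34, 1.30 and 1.49 in the arrays labelled wildtype and 0.84, 0.70 and 0.89 in those labelled Rhau KO, a difference of -0.57 or 1.48-fold. The log2 ratio of Atp2a2 to Sln was 3.27, 3.23 and 3.68 against 4.20, 3.83 and 4.17, a difference of 0.67 or 1.60-fold. The groups did not overlap for either ratio. The difference in the ratio to Sln was 0.31 in the fit with the Y-linked covariate and 0.26 with all probe sets of each gene averaged. The exact two-sided permutation p was 0.10 for each (0.10 adjusted over 2 ratios), which is the smallest that 3 against 3 arrays can give, so neither ratio can pass a threshold of 0.05.

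**Figure D2:**
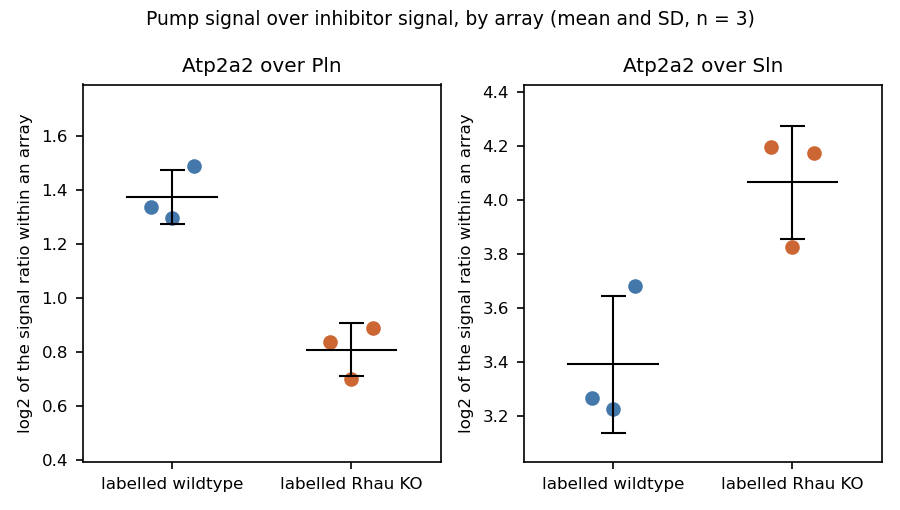
Log2 of the Atp2a2 signal over the Pln signal (left) and over the Sln signal (right) within each array, with a point for each array, a bar at the mean and the SD as whiskers (n = 3 per label). The ratio to Pln is lower and the ratio to Sln higher in the arrays labelled Rhau KO, by -0.57 and 0.67, the latter 0.31 with the Y-linked covariate and 0.26 with averaged probe sets.

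On the release side, the channel gene Ryr2 fell and its partner did not pass. Ryr2, the cardiac ryanodine receptor, read 12.06, 11.97 and 11.97 in the arrays labelled wildtype and 11.81, 11.61 and 11.79 in those labelled Rhau KO on probe set 1450123_at. The groups did not overlap, and the difference was -0.26 (SE 0.063, adjusted p = 0.0209 by limma), a 1.20-fold lower signal. The second Ryr2 probe set, near the filter at 5.82 to 6.42, differed by -0.27 (SE 0.26) without a call. The Ryr2 call was lost when any array labelled wildtype was left out, at -0.23, -0.28 and -0.28. It was also lost with eBayes without trend (adjusted p = 0.112 by limma) and with both probe sets averaged (0.0814). Fkbp1b encodes FKBP12.6, which binds the channel and steadies its closed state, and its probe set read 8.38, 8.52 and 8.32 against 8.38, 8.28 and 7.95. The groups overlapped, and its difference of -0.20 had a 95% interval from -0.49 to 0.094.

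Inside the store, the calcium-binding proteins Casq2 and Hrc fell while Trdn did not pass. Hrc, the histidine-rich calcium-binding protein, read 11.46, 11.45 and 11.51 in the arrays labelled wildtype and 11.02, 11.09 and 11.10 in those labelled Rhau KO. It separated the labels with little spread within either, by -0.40 (SE 0.053, adjusted p = 0.001 by limma), a 1.32-fold lower signal. Casq2, cardiac calsequestrin, the main calcium buffer of the store, read 11.62, 11.53 and 11.37 against 11.07, 11.24 and 11.27. The groups did not overlap but their nearest arrays lay close, and the difference was -0.31 (SE 0.078, adjusted p = 0.0243). The call was lost without replicate 1 or 2 labelled wildtype or replicate 1 labelled Rhau KO, and with eBayes without trend (adjusted p = 0.115 by limma). Its only probe set carries the suffix that Affymetrix gives to probes shared by several transcripts.

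Trdn encodes triadin, which links calsequestrin to the release channel and is spliced into several isoforms, and its 6 probe sets gave 3 negative and 3 positive differences. The brightest read 12.23, 11.98 and 12.07 against 11.92, 12.08 and 12.04, with overlap, and differed by -0.078 (95% interval -0.23 to 0.078). Probe sets 1426142_a_at and 1426144_x_at had the largest differences, 0.21 and 0.19, both without overlap but without a call (adjusted p = 0.119 and 0.126). When all 6 were averaged the difference was 0.058. The probe sets thus gave no shared direction for this gene.

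Jph2, junctophilin 2, which spans the gap between the store and the surface membrane, had the second largest decrease. Probe set 1455404_at read 11.34, 11.32 and 11.30 in the arrays labelled wildtype and 10.57, 10.44 and 10.73 in those labelled Rhau KO. The arrays labelled wildtype agreed closely and all lay above the others. The difference was -0.74 (SE 0.073, adjusted p = 1.74e-04 by limma), a 1.67-fold lower signal. The dimmer probe set 1421453_at differed by -0.32 (SE 0.21) without a call, with replicate 3 labelled wildtype at 7.88 and no other array above 7.28. With both averaged the difference was -0.53, and it still passed.

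Slc8a1, the sodium-calcium exchanger NCX1 that removes calcium from the cell, was called on 1 of its 4 probe sets. The brightest, 1425817_a_at, read 9.44, 9.25 and 9.52 against 9.35, 9.33 and 9.35, and its difference of -0.064 had a 95% interval from -0.26 to 0.13. Probe set 1440201_at rose from 6.84, 7.58 and 7.49 to 7.90, 8.10 and 8.15, by 0.75 (SE 0.19, adjusted p = 0.0299 by limma). Its groups did not overlap, but the call was lost without replicate 1 labelled wildtype, at 0.52, and without replicate 2 or 3 labelled Rhau KO. It was also lost with eBayes without trend (adjusted p = 0.0843 by limma) and with no filter, and the difference was 0.27 in the fit with the Y-linked covariate. The remaining probe sets differed by 0.17 and 0.011 without a call. The file does not say which part of the transcript each probe set reads.

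**Figure D3:**
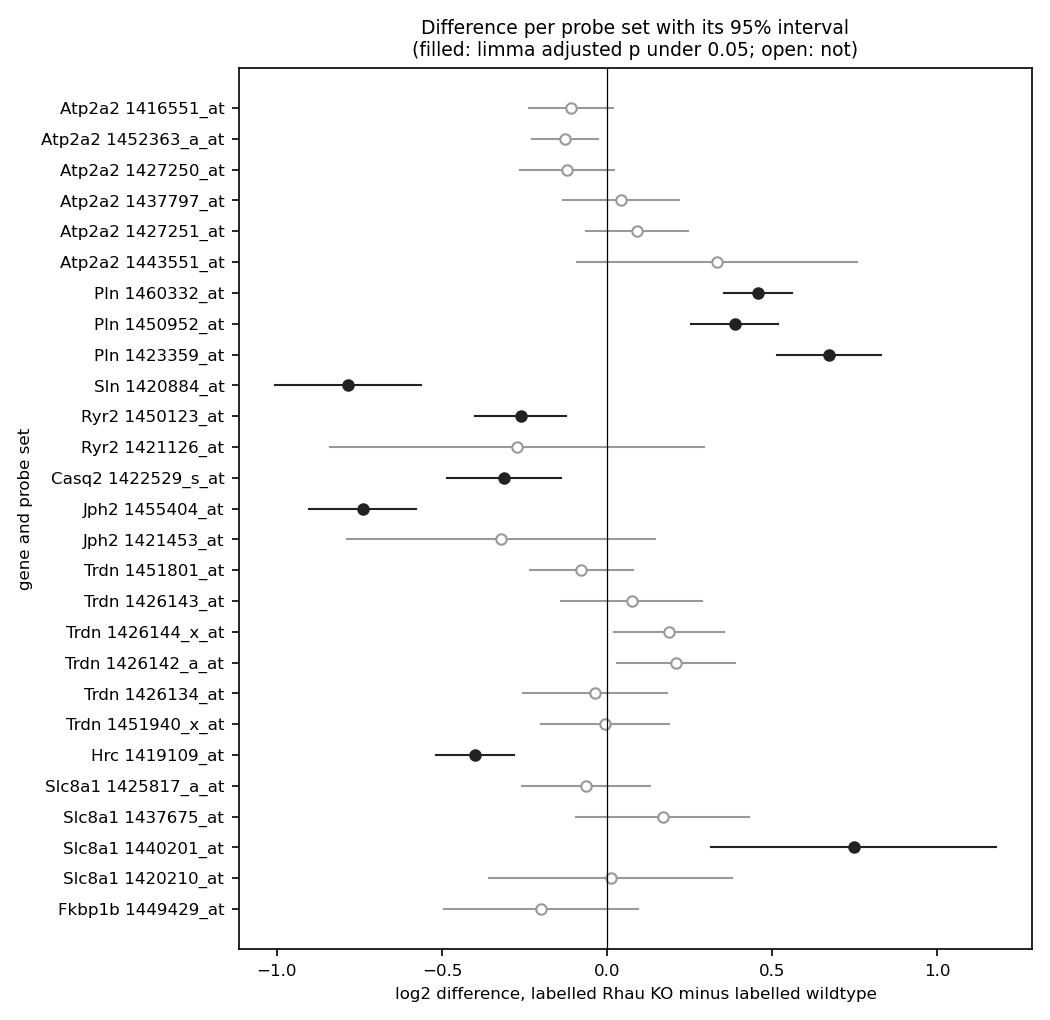
Log2 difference (arrays labelled Rhau KO minus arrays labelled wildtype) of each of the 27 tested probe sets with its 95% interval; filled points passed limma's adjusted p of 0.05. All 3 Pln probe sets lie to the right of 0, the called probe sets of Sln, Ryr2, Casq2, Jph2 and Hrc lie to the left, and those of Atp2a2 and Trdn lie on both sides.

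The calls of Pln, Sln, Jph2 and Hrc each held when any single array was left out. Without 1 array the Pln difference on the brightest probe set ran from 0.42 to 0.48, that of Sln from -0.91 to -0.72, that of Jph2 from -0.81 to -0.67 and that of Hrc from -0.41 to -0.37. In the fit with the Y-linked covariate 0 of the 27 probe sets passed by limma, with 6 at an unadjusted p under 0.05. The median SE was then 0.18, against 0.079 without the covariate. The values on the brightest probe sets of Pln, Jph2 and Hrc were 0.56, -0.82 and -0.51 in that fit, with adjusted p = 0.0599, 0.0768 and 0.110. Among the 3 arrays that carry both sex-linked signals, 1 of them wildtype by label, the differences were 0.52 for Pln, -0.53 for Sln, -0.80 for Jph2 and -0.45 for Hrc. Among the other 3, of which 1 is Rhau KO by label, they were 0.43, -0.93, -0.60 and -0.35. These values describe 3 arrays each, with 1 array in one label, and are no test of the label.

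**Figure D4:**
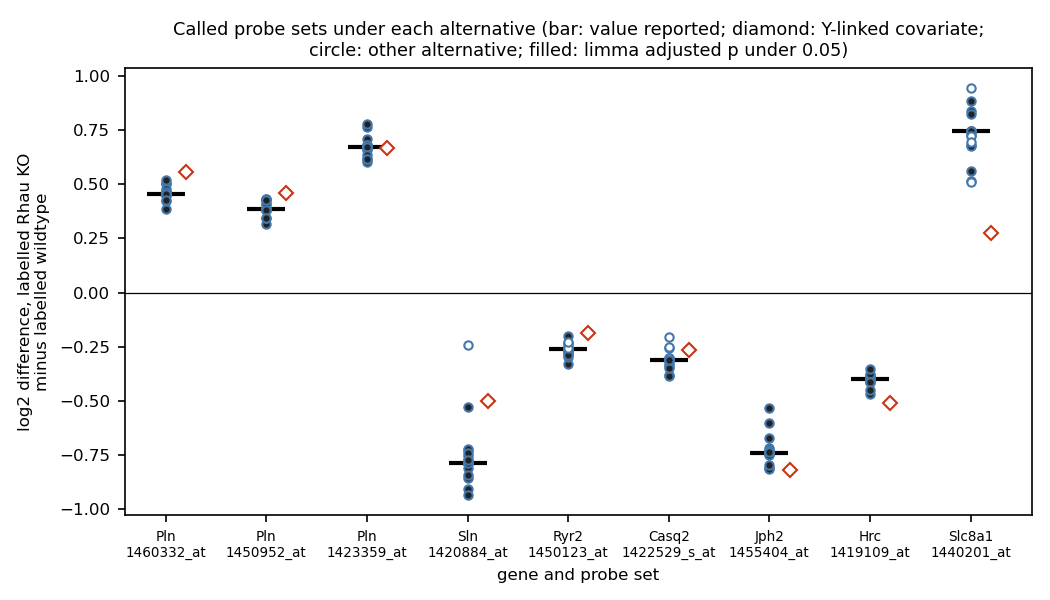
Log2 difference of the 9 called probe sets under each alternative way of processing; the bar is the value given in the text, the diamond the fit with the Y-linked covariate, circles the other alternatives, and filled symbols passed limma's adjusted p of 0.05. Each probe set keeps its sign under every alternative drawn, and none of the diamonds is filled.

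Other genes of calcium handling were read by the same fit, and whether the lists differ from each other was not tested. The 6 lists drawn from the known pathway named 67 genes, of which 60 had a probe set of their own and 56 lay above the filter. Of these, 3 rose (0 with median centring, 1 with quantile normalization), 8 fell and 45 did not pass, with a median of -0.018, against 6.77% and 9.75% called higher and lower of all genes tested. No gene of that count is one of the 10 described above, and the count fell to 5 when replicate 1 labelled wildtype was left out and to 6 without replicate 2 or 3 labelled wildtype or replicate 1 labelled Rhau KO.

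Of 8 tested genes listed under the junction and the T-tubules, the surface invaginations that meet it, 4 fell and 0 rose. The list includes Srl, which is a store protein. Cmya5, a muscle protein found beside the junction, fell by 0.67 (SE 0.092), Speg, a muscle kinase of the junction, by 0.67 (SE 0.099), Srl, the store protein sarcalumenin, by 0.55 (SE 0.056) and Cav3, muscle caveolin, by 0.37 (SE 0.087). Adjusted p by limma ran from 2.05e-04 for Srl to 0.0197 for Cav3. Other Speg probe sets differed by -0.14, 0.19 and -0.24 without a call, and the Cav3 call was lost without replicate 1 or 2 labelled wildtype. Jph1 and Jph4, relatives of Jph2, differed by 0.074 each without a call. Bin1, which shapes T-tubules, was the largest without a call at 0.24.

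Of 9 tested genes of the release channel complex, 2 fell and 1 rose. Tmem38a, the TRIC-A potassium channel that balances charge during calcium release, fell on both probe sets, by 0.68 (SE 0.10, adjusted p = 0.0022 by limma) and 0.59. Sri, sorcin, a calcium-binding partner of the channel, fell by 0.33 on its brightest probe set, while its others differed by 0.019 and 0.21. Ryr3, a relative of Ryr2, rose by 0.41 (SE 0.11, adjusted p = 0.0360), a call that was lost without replicate 1 or 3 labelled wildtype or without any array labelled Rhau KO. Casq1, the skeletal muscle relative of Casq2, differed by -0.28 (adjusted p = 0.0677).

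The remaining lists had few calls. Of 16 tested genes of calcium entry and extrusion only Cacna1g, a T-type channel of pacemaker and embryonic heart cells, rose, by 0.57 (SE 0.15), a call kept in 1 of 6 fits without 1 array, the fit without replicate 2 labelled Rhau KO. Slc8a3 differed by -0.31 without a call. Of 11 kinases, phosphatases and anchors only Camk2d, a calcium-dependent kinase that phosphorylates phospholamban and the release channel, rose, by 0.31 (SE 0.087), a call kept only without replicate 3 labelled Rhau KO. Its other probe sets included 2 with a call, at 0.53 and 0.45, and Camk2b differed by 0.41 without a call. Of 7 lumen calcium buffers Calu, calumenin, at -0.23, and Hspa5, a chaperone of the same compartment, at -0.17, fell, and Sdf4 differed by -0.11 without a call. Without 1 array, Calu kept its call only when replicate 2 or 3 labelled Rhau KO was left out, and Hspa5 only when replicate 3 labelled Rhau KO was left out. Of 5 other pump and regulator genes 0 passed by limma, with 0 at an unadjusted p under 0.05, and Atp2a3 differed by -0.28.

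**Figure D5:**
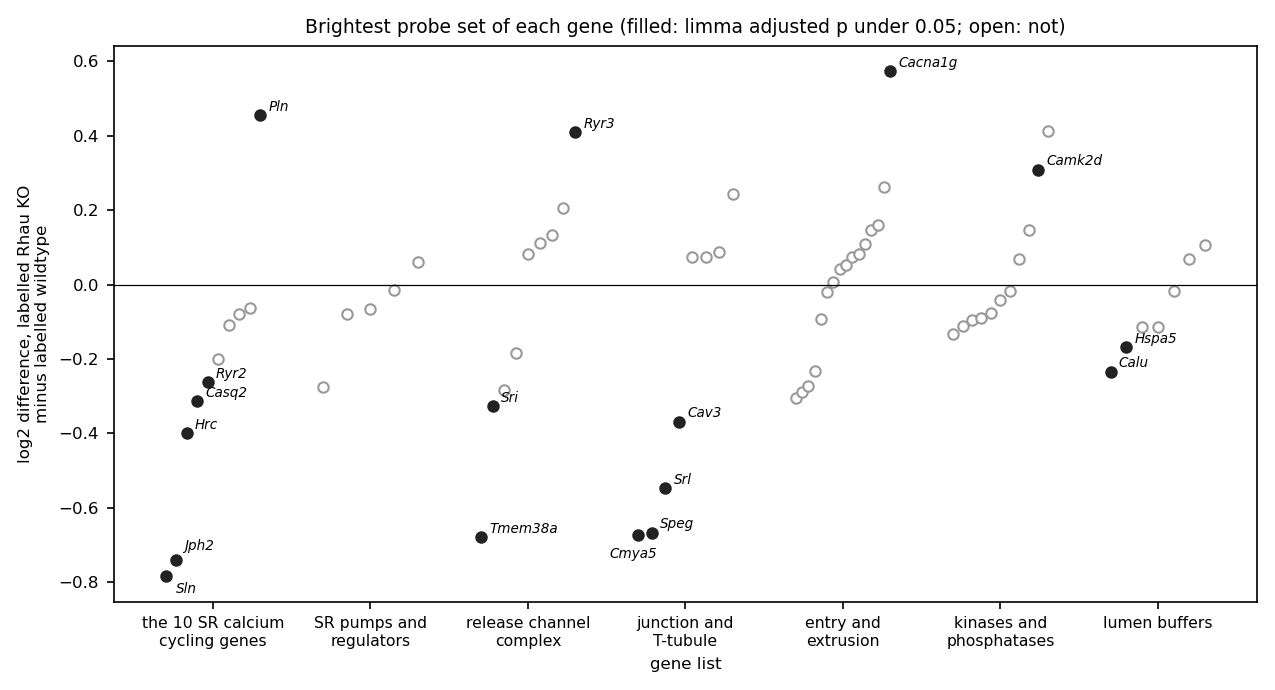
Log2 difference of the brightest probe set of each tested gene, for the 10 genes described here and for the 6 lists of other calcium handling genes; filled points with names passed limma's adjusted p of 0.05. In the junction and T-tubule list the called genes Cmya5, Speg, Srl and Cav3 all lie below 0.

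The same arrays were read for markers of heart muscle and of other cells. Of 15 contractile and other cardiomyocyte markers, 4 fell and 0 rose, with a median of -0.11, and none had a signal under 13.14 on any array. Myh6 fell by 0.35 and Tnni3 by 0.26, and 2 genes passed when replicate 1, 2 or 3 labelled wildtype was left out. Their summed linear signal was 376033 to 387668 in the arrays labelled wildtype and 328010 to 376268 in those labelled Rhau KO. Of the 15 differences 4 were positive and 11 negative, from -0.35 for Myh6 to 0.16 for Myh7, a myosin heavy chain. Many of these markers lay near the top of the scale, where saturation was not tested.

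Skeletal muscle markers, of which 6 of 8 lay above the filter, had 3 that fell and 0 that rose. Tnnt3 differed by -3.89 and Ckm by -1.04, and the summed signal was 6667 to 7550 against 2863 to 3272. Without Tnnt3 the skeletal muscle sums were 4798 to 5383 against 2747 to 3115. Myh3 went the other way, at 0.63 (SE 0.61) without a call. Myod1 and Myog, the regulators that define skeletal muscle, lay below the filter. Erythroid markers had 7 of 9 lower, with Epb42 at -1.57 and Alas2 at -1.39, and a sum of 93389 to 99993 against 71353 to 89242. Endothelial markers had 5 of 10 higher, with Kdr at 0.63 and Cdh5 at 0.50, and a sum of 12984 to 13928 against 14814 to 15913. Macrophage markers had 2 of 8 higher, Lyz2 at 2.98 and Mrc1 at 0.43, with a sum of 2643 to 2839 against 3648 to 4407. Without Lyz2 the macrophage sums overlapped, at 2479 to 2682 against 2529 to 3058, and Csf1r and Cx3cr1 differed by 0.038 and -0.10 without a call.

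Neural markers had 3 of 5 higher, Ednrb at 0.78, Elavl4 at 0.63 and Gap43 at 0.32, with a sum of 2942 to 3057 against 4555 to 4769. Without Ednrb the neural sums were 864 to 952 against 1016 to 1066, and Tubb3 and Sox10 differed by -0.38 and 0.040 without a call. Smooth muscle markers had 1 of 6 lower, Cnn1 at -0.36, with Acta2 at -0.17 without a call and a sum of 34735 to 37535 against 30619 to 34286. Without Cnn1 the smooth muscle sums overlapped, at 28375 to 30480 against 25641 to 28773. Tagln and Mylk differed by 0.053 and 0.024 without a call. Of 6 liver, gut and lung markers 3 lay above the filter. Of these 1 was lower, Krt8 at -0.55, with Epcam at -0.74 without a call. Alb, Afp and Nkx2-1 lay below the filter and were not tested. The sum over all 6 was 1110 to 1230 against 773 to 985. Epicardial markers had 0 of 6 called by limma. Aldh1a2 at -0.31, Tbx18 at -0.15 and Upk3b at -0.15 were the 3 at an unadjusted p under 0.05. Upk1b differed by -0.20, and Wt1 went the other way at 0.16, both without a call. The list had a sum of 10455 to 11862 against 9853 to 10307. No marker of these lists was listed at 0 on any array, but the lowest signal was 2.93 and detection was not tested. The part of these shifts in the differences of the calcium genes was not tested.

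Sln, the called gene of largest difference, was also set against the 12406 other genes above the filter for likeness of pattern. Over the 6 arrays the log2 signals of Afmid, Rcan2 and Dzip1l ran closest to it, with Pearson r of 0.999, 0.995 and 0.994. Being picked for likeness to Sln, each of them shares the step between the labels and the lower value of replicate 3 labelled wildtype. Rcan2, a regulator of the calcium-dependent phosphatase calcineurin, read 11.56, 11.55 and 11.36 against 10.85, 10.96 and 10.89. The points share the same arrays and the same label step, and no p is given.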

How the data were processed

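Gene names come from the platform annotation, updated through Entrez identifiers against the RefSeq table of GRCm38.p6. Per the submitters' processing notes the authors made the values with MAS5 (version not stated there). The deposited table holds log2 signals for 6 arrays, and all arrays share a 2% trimmed mean of 497 in linear units, as after global scaling. Values were used as deposited. Of 45101 probe sets 64 controls were left out, and 34945 name 1 gene, 932 several and 9160 none or are not listed. Probe sets in the lowest 40% by mean signal, below 5.90, were not tested.

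The remaining 27022 probe sets were fitted with limma 3.58.1 in R 4.3.3 (lmFit, eBayes with trend), and all adjusted p are Benjamini-Hochberg over them. The procedure was also run on simulated data with independent noise for each probe set. That run does not cover shifts shared by many probe sets of an array, such as sex-linked ones. The genes, lists and alternatives were chosen with earlier results of these data known. Beyond the 10 genes, named are Dhx36, Nkx2-5, the 10 called genes of largest difference in the pathway lists, the largest uncalled gene of each, up to 2 markers a list and the 3 genes most like Sln. Jph1, Jph4, Hspa5, Myh7, Myh3, Tagln, Mylk, Wt1, Tbx18, Upk3b, Csf1r, Cx3cr1, Gap43, Tubb3, Sox10, Alb, Afp and Nkx2-1 were named after their values were seen. Alternatives were pseudocounts of 1 and 64, quantile normalization, median centring, other filters, gene-level values, eBayes without trend, array weights, a replicate block, a Y-linked covariate and leaving out arrays. Array pairs of one label differed at 44993 or more probe sets. Tables were handled with pandas 2.3.3.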

Additional observations from a re-analysis of the deposited data

How the results depend on the processing

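All 9 called probe sets of the 10 genes kept their direction under every alternative that was run, and 9 of 9 kept their call with either pseudocount, quantile normalization, median centring, the lowest 60% left out, array weights and the replicate block. With no filter 8 of 9 kept it (Slc8a1 lost), with eBayes without trend 6 of 9 (Ryr2, Casq2 and Slc8a1 lost), and with averaged probe sets 4 of 6 genes (Sln and Ryr2 lost). Calls over the whole table were 3682; they were 2354 with the brightest probe set of a gene, 1432 with all probe sets of a gene averaged, 1789 with eBayes without trend, 138 with the Y-linked covariate, 2185 to 2857 without 1 array, 1016 in the 3 arrays of mixed sex-linked signal and 1559 in the other 3, both chosen after seeing the data. With the Y-linked covariate 0 probe sets and 0 of the 10 genes passed by limma (6 and 4 at an unadjusted p under 0.05), as did 0 of the other pathway genes (7) and 0 of the cardiomyocyte markers (2). Other pathway genes called, 11 in the text, were 6 with no filter, 7 averaged, 5 without trend, 5 to 10 without 1 array, 2 in the 3 mixed arrays (12 at an unadjusted p under 0.05) and 5 in the other 3. Cardiomyocyte markers called, 4 in the text, were 2 with no filter, 1 without trend, 2 to 5 without 1 array, 0 in the 3 mixed arrays (3 at an unadjusted p under 0.05) and 2 in the other 3. The log2 ratio of Atp2a2 to Pln became -0.75 and that to Sln 0.31 with the Y-linked covariate, and that to Sln 0.26 with averaged probe sets. The cause of these shifts was not tested, and some settings leave fewer arrays or features.

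The following values, none of them called in the text, changed sign. With averaged probe sets Atp2a2 was 0.018, Trdn 0.058 and Slc8a1 0.22. With the Y-linked covariate Atp2a2 1427250_at was 0.044, Trdn 1426143_at -0.038, Trdn 1426134_at 0.018 and Fkbp1b 0.25. With median centring Atp2a2 1437797_at was -0.027 and Slc8a1 1420210_at -0.058, the latter -0.061 with quantile normalization and -0.011 with array weights. In the 3 mixed arrays Trdn 1426143_at was -0.039, Trdn 1426134_at 0.082 and Fkbp1b 0.017, and in the other 3 Atp2a2 1437797_at was -0.072, Slc8a1 1437675_at -0.0050 and Slc8a1 1420210_at -0.048. Without 1 array Atp2a2 1437797_at ran from -0.030 to 0.097, Trdn 1426143_at from -0.026 to 0.19, Trdn 1426134_at from -0.12 to 0.027, Trdn 1451940_x_at from -0.054 to 0.034 and Slc8a1 1420210_at from -0.075 to 0.096.

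Same-numbered arrays did not deviate together (correlations of deviations from the group means -3.00e-04, 0.042 and 0.0055), and not every array correlated best with its own number. The replicate block gave 3444 calls against 3682 and the same 9 and 6 calls for probe sets and genes.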
